A study of Mus musculus with 12 samples.

Results

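The 9 genes described here were chosen by name: Traf6, Skp2, Nedd4, Stub1, Ttc3, Mul1, Trim13, Cyld and Uchl1, ubiquitin ligases and deubiquitinases that have been reported to act on the kinase Akt. The rule is by gene symbol and has no threshold on measured values, and every probe set that the platform annotation gave to 1 of them was taken, on all 12 arrays. The annotation gave them 31 of the 45037 probe sets that are no controls, and 26 of the 31 passed a filter on low values (above the array's own median on at least 3 of 12 arrays). All 9 genes were thus among the 10996 genes tested, of 18194 genes with a probe set of 1 symbol. Each gene was read from the brightest of its kept probe sets, as a log2 expression value, so that a difference of 1 is a doubling.

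The arrays measured total RNA of whole mouse lung. Each of the 4 groups held 3 mice, aged 8 to 12 weeks. They were wild type mice labelled SB, which the series design calls the control, wild type mice with ventilator-induced lung injury (VILI), mice labelled GADD45-/- under SB, and mice labelled GADD45-/- with VILI. For VILI the mice were ventilated for 4 hours at 65 breaths per minute, each breath 30 ml/kg. The labels do not spell out SB. The series title names Gadd45a, a small stress-inducible nuclear protein, as the gene studied and asks about the role of Akt signalling. The sources used here do not give strain, sex, the kind of knockout allele or the array batch.

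Akt is a kinase that promotes survival and growth once phosphoinositide 3-kinase has made the membrane lipid that recruits it. Ubiquitin chains of a kind that does not lead to degradation can be built on Akt by Traf6, by the Skp2 complex or by Nedd4. Those built by Traf6 or the Skp2 complex help to bring Akt to the membrane. The deubiquitinase Cyld removes chains of this kind. Other ligases, among them Stub1, Ttc3 and Mul1, tag Akt for the proteasome and so end its signal. In the lung, Akt activity is known for its part in keeping the endothelial barrier tight and epithelial cells alive. All of this happens on proteins, and the arrays measured only the transcripts of the enzymes.

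The starts of Nedd4 and Ttc3 are shown because these were the members that passed the test with VILI. RefSeq (assembly GRCm38.p6) gave promoter windows of 300 bases for all 9 members, 12 windows in all, most of each lying before the transcription start. Each was searched for 5 motifs: the E-box CACGTG, the AP-1 site TGANTCA, the cAMP response element TGACGTCA, the pair of heat shock units GAANNTTC, and the kappa B site. All but the kappa B site read alike on both strands, and both strands were searched. The AP-1 letters cannot lie inside the cAMP element. Nedd4 had a window at chr9:72662081-72662380 and another, inside the same locus, at chr9:72693048-72693347, and Ttc3 had a window at chr16:94370489-94370788, all on the plus strand. They read 5′ to 3′ as follows, with motif matches in capitals.
Nedd4 start 1: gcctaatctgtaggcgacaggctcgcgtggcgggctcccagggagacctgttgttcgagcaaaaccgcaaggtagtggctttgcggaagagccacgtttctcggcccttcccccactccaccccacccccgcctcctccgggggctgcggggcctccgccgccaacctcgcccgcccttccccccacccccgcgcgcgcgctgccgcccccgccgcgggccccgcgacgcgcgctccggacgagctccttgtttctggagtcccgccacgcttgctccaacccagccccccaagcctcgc
Nedd4 start 2: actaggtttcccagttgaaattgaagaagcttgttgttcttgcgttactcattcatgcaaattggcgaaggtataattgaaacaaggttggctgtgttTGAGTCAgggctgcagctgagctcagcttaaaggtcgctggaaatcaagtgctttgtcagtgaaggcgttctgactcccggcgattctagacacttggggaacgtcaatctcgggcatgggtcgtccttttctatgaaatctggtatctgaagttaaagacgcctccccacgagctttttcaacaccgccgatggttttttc
Ttc3 start: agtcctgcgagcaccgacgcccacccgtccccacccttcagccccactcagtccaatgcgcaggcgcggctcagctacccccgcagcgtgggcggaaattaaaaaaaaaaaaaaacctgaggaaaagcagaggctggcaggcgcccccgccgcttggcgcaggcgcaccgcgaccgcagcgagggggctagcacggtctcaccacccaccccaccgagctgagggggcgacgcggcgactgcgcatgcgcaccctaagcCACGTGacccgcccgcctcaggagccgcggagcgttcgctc

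The first window of Nedd4 held 35 CpG dinucleotides and that of Ttc3 held 34, against a median of 7 over all 32851 mouse windows, so that 93.0% and 92.3% of windows had fewer. The second window of Nedd4 held 13 CpG. It alone among the 12 member windows had an AP-1 match, as 7.81% of all windows did. The E-box in the Ttc3 window recurred in those of Stub1 and Mul1, and 7.15% of all windows had one. Kappa B matches lay in the Cyld window and in 1 of 2 Trim13 windows (5.8% of all windows), and GAANNTTC matches in those of Stub1 and Uchl1 and in 1 of 2 Skp2 windows (7.86% of all). The cAMP element, present in 1.79% of all windows, was found in none of the members' windows. These matches describe letters in the windows only.

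Array medians lay between 4.36 and 4.58, correlations between arrays within a group ran from 0.963 to 0.995, and 3 arrays per group limit the precision. The mean of the marker list was at 12.0 or above on every array for club cells, type II cells and type I cells, as the label lung asks. Gadd45a was between 8.62 and 10.33 on the 6 wild type arrays and between 4.58 and 6.15 on the 6 knockout arrays. Its knockout difference was -3.74 under SB (adjusted p = 0.00136) and -4.20 after VILI (adjusted p = 0.00126). Replicate 3 of each knockout group stood apart by its B cell markers: the mean of the 3 tested of 7 listed was 10.40 and 10.80 on those arrays and 5.54 to 7.90 on the others.

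With VILI, 2 of the 9 genes fell and none rose when both genotypes were averaged. These were Nedd4 and Ttc3, and 9.39% of all genes tested were called lower in that comparison (17.8% in either direction). In knockout lungs alone, 1 of the 9 fell, Nedd4, where 1.7% of all genes were called lower and 4.47% in all. In wild type lungs alone, limma called 0 of the 9, with 3 at an unadjusted p under 0.05 (21.2% of all genes), and 2.64% of all genes were called. Calls are limma tests with Benjamini-Hochberg adjustment over the 10996 genes at 0.05. The median change of the 9 with VILI was 0.17 averaged over genotypes, against -0.03 over all genes tested. A positive change was seen for 6 of the 9, and for 46.2% of all genes. Uchl1, among the 6, passed the filter on low values only through VILI arrays, so its sign carries no weight here. The split of calls over all genes depends on the scaling: with VILI averaged, 926 were higher and 1032 lower as deposited, but 663 and 1157 after centring each array on its median and 808 and 1384 after quantile normalization. In knockout lungs, 304 were higher and 187 lower as deposited, and 271 and 257 after quantile normalization.

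**Figure D1:**
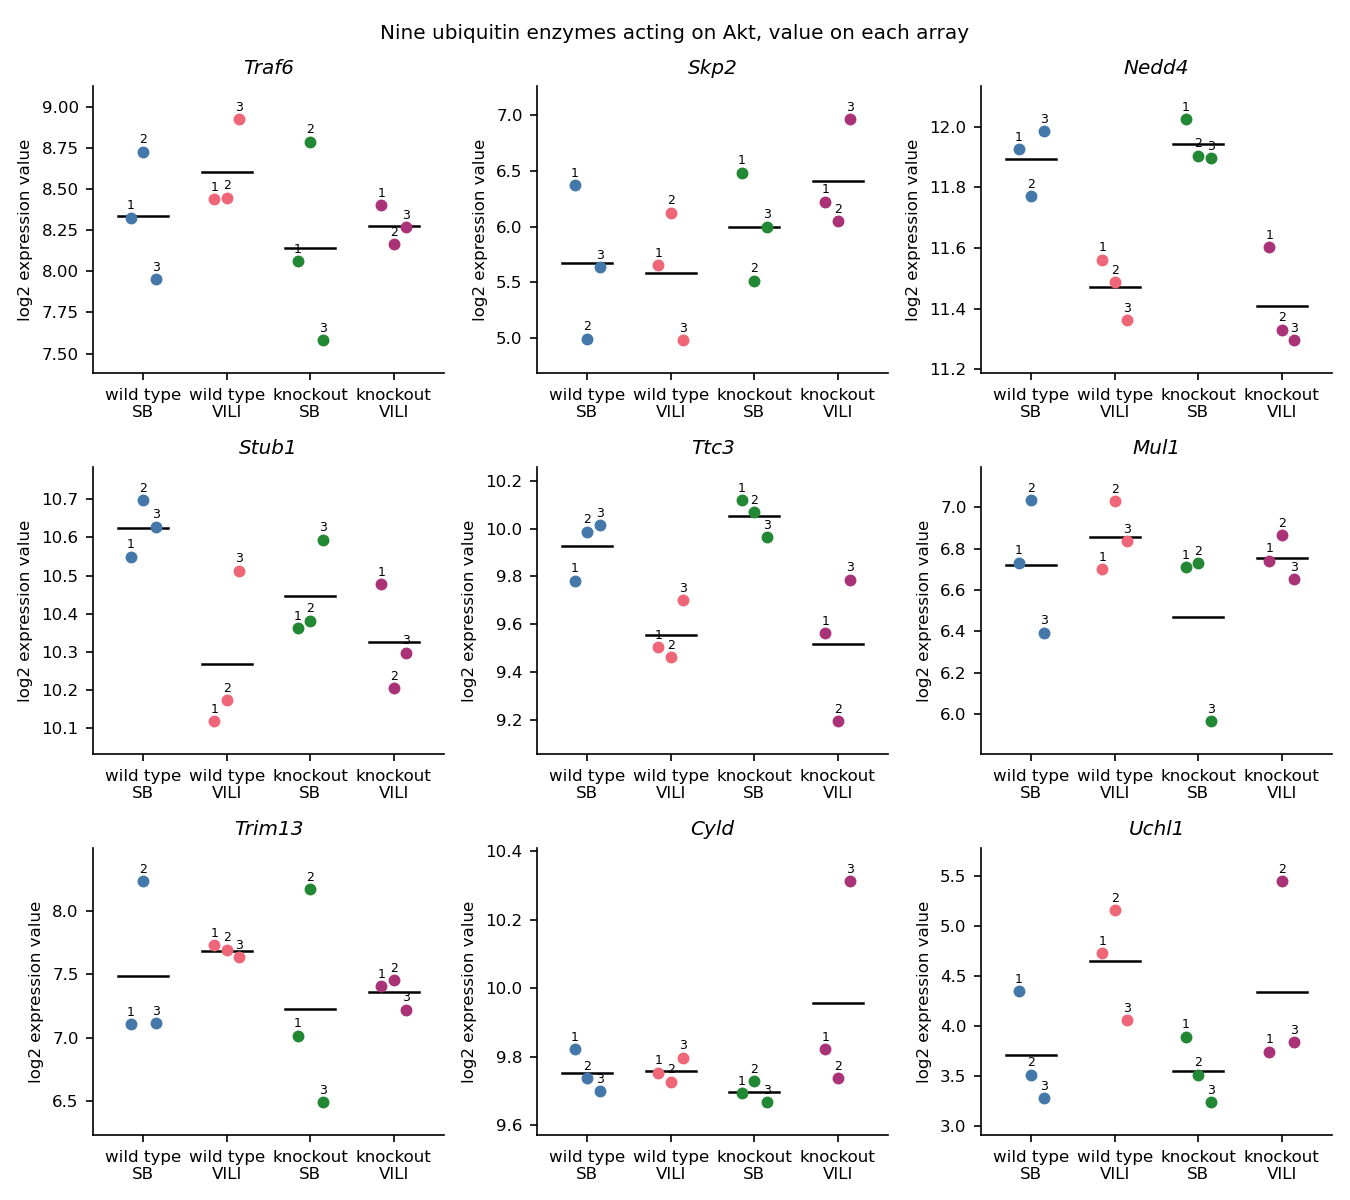
Log2 expression value (vertical axis, scaled for each gene) of the 9 enzymes on each of the 12 arrays, with a point per array, its replicate number beside it and a line at the group mean. All 6 VILI arrays lie below all 6 SB arrays for Nedd4. Uchl1 passed the filter on low values only through its highest values, 4.73, 5.15 and 5.44, all on VILI arrays.

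Nedd4, a HECT-type ligase that also regulates membrane receptors and channels, showed the clearest response. It read 11.93, 11.77 and 11.99 in wild type SB and 12.02, 11.90 and 11.90 in knockout SB. With VILI it read 11.56, 11.49 and 11.36 in wild type and 11.60, 11.33 and 11.30 in knockout. Every VILI array was below every SB array, and the genotypes overlapped within each treatment.

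From the highest to the lowest mean the groups were knockout SB (11.94 ± 0.07, SD, n = 3), wild type SB (11.89 ± 0.11), wild type VILI (11.47 ± 0.10) and knockout VILI (11.41 ± 0.17). Neighbours of the same treatment differed by less than their SD, and only the step from SB to VILI exceeded it. Averaged over genotypes, Nedd4 fell by 0.48 on the log2 scale (SE 0.07, 95% interval -0.64 to -0.32, limma adjusted p = 0.00232), which is 1.39-fold lower. The fall was called under all 21 alternatives run for it, with adjusted p from 0.000906 to 0.00863. In bulk lung RNA, fewer cells that express a gene and less of its RNA per cell cannot be told apart.

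Within each genotype the sizes were alike, but the calls were not. In knockout lungs Nedd4 fell by 0.53 (SE 0.10, adjusted p = 0.0191), 1.45-fold. In wild type lungs the difference was -0.42 (SE 0.10) with an adjusted p of 0.0523. The interaction, the test of the difference between the genotypes, was -0.11 (SE 0.14, adjusted p = 0.9999). The knockout call rests on single arrays: the adjusted p was 0.0660 without knockout SB replicate 1, 0.0869 without knockout VILI replicate 2 and 0.0581 without knockout VILI replicate 3, at differences of -0.49, -0.49 and -0.48. It was 0.115 with only the knockout arrays in the fit. The wild type difference was also called without knockout SB replicate 3 (adjusted p = 0.0488) or without knockout VILI replicate 1 (adjusted p = 0.0355), arrays that change only the spread used.

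Nedd4 has 3 probe sets, all kept. The second, 1451109_a_at, read 11.35, 11.30 and 11.51 in wild type SB, 11.59, 11.40 and 10.94 in wild type VILI, 12.13, 12.13 and 11.76 in knockout SB and 11.30, 11.37 and 10.87 in knockout VILI. On it the knockout SB arrays stood above all 9 others, while the wild type groups overlapped. Its VILI difference was -0.83 in knockout (SE 0.18, adjusted p = 0.0402) and -0.08 in wild type (SE 0.18), and its knockout difference under SB was 0.62 (unadjusted p = 0.00534, adjusted p = 0.322).

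The interaction on that probe set was -0.75 (SE 0.26, unadjusted p = 0.0131, adjusted p = 0.999995). The third, 1421955_a_at, lay between: -0.34 with VILI in wild type lungs (adjusted p = 0.314), -0.68 in knockout lungs (adjusted p = 0.0705), and 0.41 for knockout under SB (adjusted p = 0.451). With every kept probe set as its own row, all 3 were called lower with VILI averaged over genotypes, at -0.48, -0.45 and -0.51, and 2 of 3 in knockout. Of all 23082 kept probe sets, 5.83% and 0.823% were called lower in these comparisons. The probe sets thus share the fall averaged over genotypes and differ in how the knockout SB arrays stand to the wild type SB arrays. With the mean of the 3 in place of the highest, the wild type difference was -0.28 (adjusted p = 0.256).

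Ttc3, a ligase that binds phosphorylated Akt and marks it for degradation, fell as well. It read 9.78, 9.99 and 10.01 in wild type SB and 10.12, 10.07 and 9.96 in knockout SB. With VILI it read 9.50, 9.46 and 9.70 in wild type and 9.56, 9.20 and 9.79 in knockout. Within each genotype the VILI arrays lay below the SB arrays, and knockout VILI replicate 3 was just above the lowest wild type SB array.

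The group means ran from knockout SB (10.05 ± 0.08, SD, n = 3) through wild type SB (9.93 ± 0.13) and wild type VILI (9.56 ± 0.13) to knockout VILI (9.52 ± 0.30). The last pair differed by less than either SD. Averaged over genotypes the fall was 0.45 on the log2 scale (SE 0.10, 95% interval -0.68 to -0.23, limma adjusted p = 0.0134), or 1.37-fold, and all 21 alternatives kept the call (adjusted p from 0.00739 to 0.0395). The difference was -0.37 in wild type (SE 0.14, adjusted p = 0.172) and -0.53 in knockout (SE 0.14, adjusted p = 0.0612), neither called, with an interaction of -0.16 (SE 0.20, adjusted p = 0.9999). Without knockout VILI replicate 3, the knockout difference was -0.67 and passed (adjusted p = 0.0433).

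All 7 probe sets of Ttc3 were kept, and all 7 had a negative VILI difference averaged over genotypes, from -0.12 to -0.55. With every kept probe set as its own row, 1 of the 7 was called, 1448361_at, which stands for the gene above (adjusted p = 0.0182). The other 6 had adjusted p-values from 0.0542 to 0.446. On 1460077_at the wild type VILI arrays, at 4.86, 4.81 and 5.40, were below all 9 other arrays, which ran from 5.64 to 6.39. Its wild type VILI difference was -0.66 (adjusted p = 0.126) and its knockout difference after VILI 0.64 (adjusted p = 0.629). Where the gene's brightest probe set had the larger difference in knockout, 5 of the other 6 had it in wild type.

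**Figure D2:**
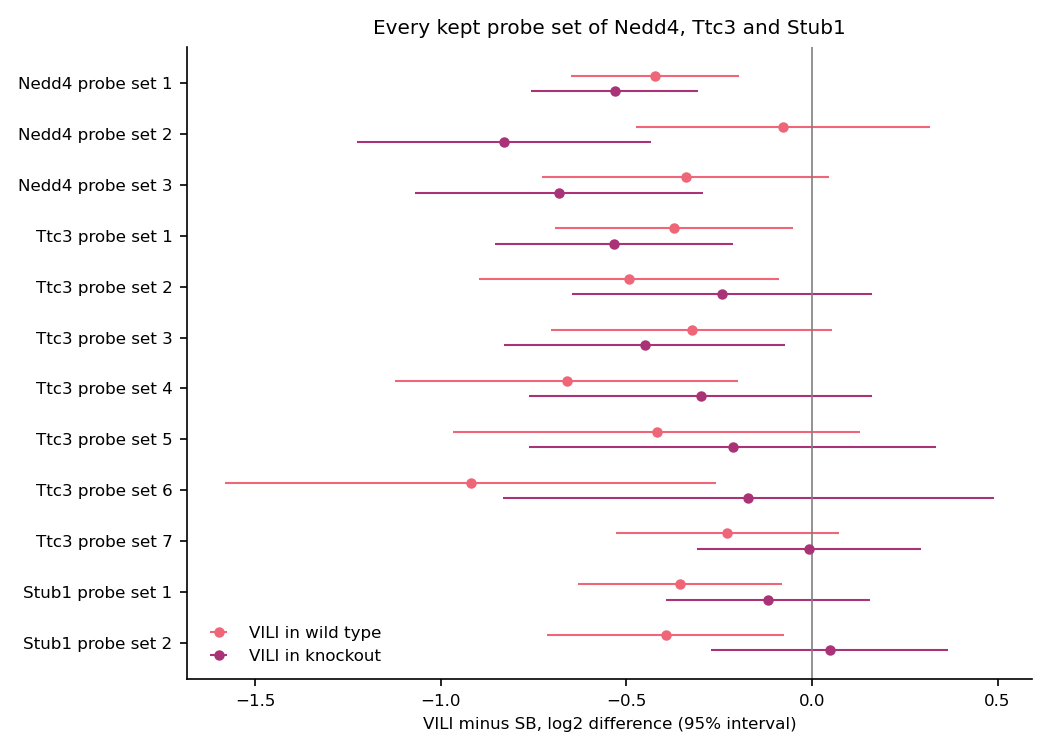
VILI minus SB log2 difference with its 95% interval (horizontal axis) for every kept probe set of Nedd4, Ttc3 and Stub1, in wild type and in knockout, numbered from the brightest. All points but the knockout value of the second Stub1 probe set, 0.05, lie below 0.

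Stub1, also called CHIP, is a ligase that works with heat shock chaperones and sends their clients, Akt among them, to the proteasome. It read 10.55, 10.70 and 10.63 in wild type SB, 10.12, 10.17 and 10.51 in wild type VILI, 10.36, 10.38 and 10.59 in knockout SB and 10.48, 10.20 and 10.30 in knockout VILI. The wild type groups did not overlap, by a narrow margin at VILI replicate 3, and the knockout groups did. The VILI difference was -0.36 (SE 0.12, adjusted p = 0.136) in wild type lungs, -0.12 (SE 0.12, adjusted p = 0.614) in knockout lungs and -0.24 (SE 0.09, adjusted p = 0.0809) on average, none of them called. Without wild type VILI replicate 3 the averaged difference passed at -0.30 (adjusted p = 0.0333). The other probe set of Stub1 gave -0.39 in wild type (adjusted p = 0.175) and 0.05 in knockout. Its suffix, x, marks probes that can also match other transcripts. The interaction of the gene was 0.24 (SE 0.18, adjusted p = 0.9999).

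Markers of several lung cell types moved with VILI over the same arrays. The 7 endothelial markers averaged 11.31 to 11.65 on the SB arrays and 10.61 to 11.10 on the VILI arrays, and 5 of 7 fell in the comparison averaged over genotypes. Type I cell markers went from 12.67 to 13.03 under SB to 12.01 to 12.51 after VILI (1 of 4 fell), and ciliated cell markers from 7.27 to 8.04 to 6.50 to 6.96 (4 of 4 fell). The 7 neutrophil markers went from 6.44 to 7.58 to 9.41 to 11.18, and 7 of 7 rose. The lowest value of a tested marker on any array was 9.18 for endothelium, 9.43 for type I cells, 3.14 for ciliated cells and 2.85 for neutrophils. The values 3.14 and 2.85 lie below the lowest array median, 4.36. Their part in the lower Nedd4 and Ttc3 values was not tested.

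By Pearson correlation over the 12 arrays, the genes most like Nedd4 were Adi1 (0.975), Add1 (0.974) and Kank2 (0.973). Those most like Ttc3 were Fam47e (0.955), Ncoa2 (0.944) and Map3k4 (0.943). The 12 arrays share the step between SB and VILI, so these values describe likeness over the arrays and carry no test.

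Traf6, a RING ligase of Toll-like and interleukin-1 receptor signalling, did not pass in any comparison. It read 8.33, 8.73 and 7.95 in wild type SB, 8.44, 8.45 and 8.93 in wild type VILI, 8.06, 8.79 and 7.58 in knockout SB and 8.40, 8.16 and 8.27 in knockout VILI. The SB arrays spread over more than the VILI arrays of either genotype and enclosed most of them. The VILI difference was 0.27 in wild type (SE 0.28, adjusted p = 0.626) and 0.13 in knockout (adjusted p = 0.825). After VILI every knockout array was below every wild type array, at a difference of -0.33 (95% interval -0.95 to 0.30, adjusted p = 0.816). The 3 other kept probe sets had VILI differences between -0.06 and 0.06 averaged over genotypes.

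Skp2, the substrate-binding F-box protein of the SCF ligase and a promoter of entry into the cell cycle, varied most within groups among the ligases. It read 6.37, 4.99 and 5.64 in wild type SB, 5.65, 6.13 and 4.98 in wild type VILI, 6.48, 5.52 and 6.00 in knockout SB and 6.22, 6.05 and 6.97 in knockout VILI. The highest value was knockout VILI replicate 3, and the groups overlapped. The genotype difference averaged over treatments was 0.58 (95% interval -0.05 to 1.21, adjusted p = 0.377), the smallest adjusted p of the 9 in that comparison. After VILI it was 0.83 (SE 0.40, adjusted p = 0.736), and 0.55 without knockout VILI replicate 3.

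The second kept probe set of Skp2, 1460247_a_at, put all knockout VILI arrays (5.46, 5.87 and 6.71) above all wild type VILI arrays (5.20, 5.36 and 5.09), at 0.80 (SE 0.35, adjusted p = 0.824). Knockout VILI replicate 3 was also the array with the most RNA of dividing cells: the mean of 6 markers tested of 8 listed was 8.01 there and 4.93 to 6.17 on the other 11 arrays. The lowest value of these 6 markers on any array was 3.64. Lymphocyte markers were also higher on average in knockout lungs, with 0 called. The 3 tested B cell markers averaged 5.54 to 7.74 on the wild type arrays and 6.76 to 10.80, the last on this same array, on the knockout arrays. Without the replicates numbered 3, at 10.40 under SB and 10.80 after VILI, the knockout arrays ran from 6.76 to 7.90. The 2 tested markers of T and NK cells, of 7 listed, averaged 3.93 to 4.98 and 4.67 to 6.27. The median genotype differences of the B cell list and of the T and NK list were 1.48 and 0.98, against 0.61 for the dividing cell markers. After VILI, 1 of the 2 tested T and NK markers was higher in knockout. The lowest value of a tested lymphocyte marker on any array was 2.86, for Cd3g. Of those not tested, Cd3e, Cd4, Ncr1 and Pax5 were above the median on no array. The part of these markers in the Skp2 values was not tested.

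Cyld, the deubiquitinase that trims non-degradative chains and restrains NF-kB, was the steadiest member on 11 of the 12 arrays, from 9.67 to 9.82. Knockout VILI replicate 3 read 10.31. The values were 9.82, 9.74 and 9.70 in wild type SB, 9.75, 9.73 and 9.80 in wild type VILI, 9.69, 9.73 and 9.67 in knockout SB and 9.82, 9.74 and 10.31 in knockout VILI. Every knockout VILI array was above every knockout SB array, by a narrow margin at replicate 2.

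The Cyld difference with VILI in knockout was 0.26 (SE 0.13, adjusted p = 0.280), and 0.08 without knockout VILI replicate 3. The knockout difference after VILI was 0.20 (adjusted p = 0.784), and 0.02 without that array. In wild type the VILI difference was 0.01 (95% interval -0.29 to 0.30). On another probe set of the gene, 1429617_at, the wild type VILI arrays (7.35, 7.11 and 6.83) were above the wild type SB arrays (6.80, 6.69 and 6.44), at 0.45 (SE 0.16, adjusted p = 0.163). On it the knockout SB arrays (7.05, 7.09 and 7.07) were above the wild type SB arrays as well, at 0.43 (SE 0.16, unadjusted p = 0.0221, adjusted p = 0.412). For the gene's brightest probe set that difference was -0.06, and for the mean of its kept probe sets 0.17 (adjusted p = 0.633), so its sign depends on the probe set.

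**Figure D3:**
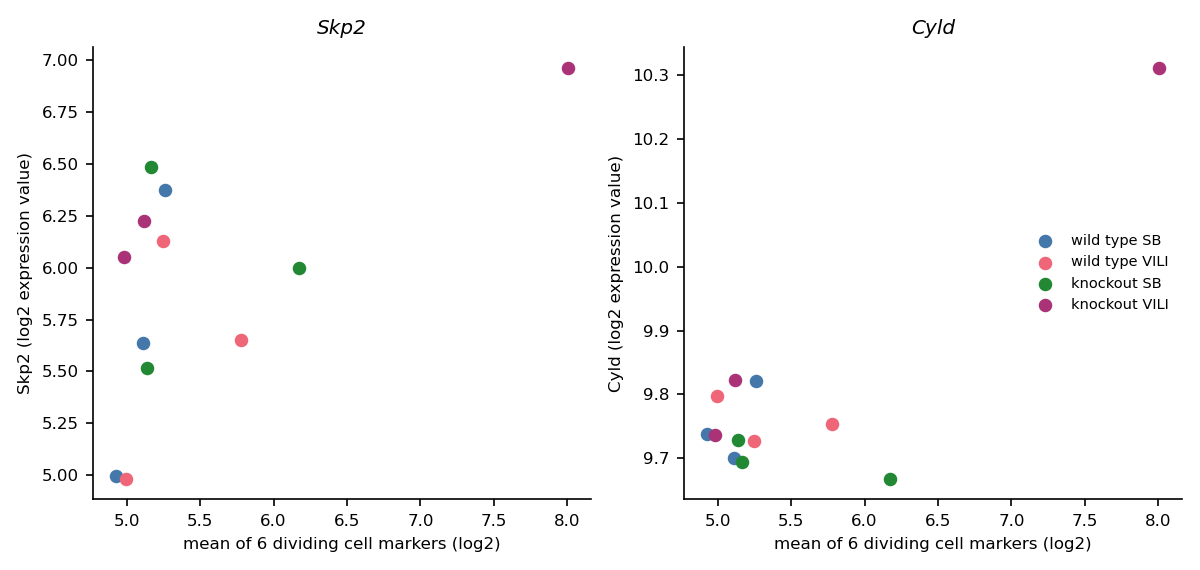
Log2 expression value of Skp2 (left) and Cyld (right) on the vertical axis against the mean log2 value of 6 dividing cell markers on the horizontal axis, with a point per array coloured by group. Knockout VILI replicate 3, at 8.01 on the horizontal axis, has the highest value of both genes, 6.97 and 10.31.

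Mul1, a ligase of the mitochondrial outer membrane, and Trim13, a RING ligase anchored in the endoplasmic reticulum, did not pass in any comparison. Mul1 read 6.73, 7.03 and 6.39 in wild type SB, 6.70, 7.03 and 6.84 in wild type VILI, 6.71, 6.73 and 5.97 in knockout SB and 6.74, 6.87 and 6.65 in knockout VILI. Its groups overlapped throughout, and its VILI difference averaged over genotypes was 0.21 (95% interval -0.14 to 0.56, adjusted p = 0.385). The other probe set of Mul1 gave -0.02.

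Trim13 read 7.11, 8.24 and 7.12 in wild type SB, 7.73, 7.70 and 7.64 in wild type VILI, 7.02, 8.17 and 6.49 in knockout SB and 7.41, 7.46 and 7.22 in knockout VILI. The VILI arrays were close together within a genotype (SD 0.05 and 0.12), while the SB arrays spread widely (SD 0.65 and 0.86). After VILI the knockout arrays were all below the wild type arrays, at -0.33 (95% interval -1.17 to 0.52, adjusted p = 0.860).

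On their brightest probe sets, Traf6, Mul1 and Trim13 shared a feature of the SB arrays, seen after their values were known. In both genotypes the array numbered 2 in the titles was the highest SB array for each of them and the array numbered 3 was the lowest, except that wild type SB replicates 1 and 3 of Trim13 were level at 7.11 and 7.12. Knockout SB replicates 1 and 2 of Mul1 were as close, at 6.71 and 6.73. Other probe sets kept this order only in part. On 1434118_at of Mul1 the knockout SB arrays read 6.27, 6.62 and 6.63. On 1443288_at of Traf6 number 1 was highest in wild type SB, at 6.98 against 6.86 for number 2. On 1421376_at of Traf6 the order held in both genotypes, and on 1421377_at number 2 was highest in both. Skp2 had its lowest SB value in the array numbered 2 in both genotypes, 4.99 and 5.52, and its highest in the array numbered 1. Uchl1 was highest in number 1 and lowest in number 3 in both. What the number stands for is not given in the labels. Among the VILI arrays the highest Traf6 value was replicate 3 in wild type and replicate 1 in knockout, while Mul1 was again highest in the array numbered 2 of both genotypes.

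**Figure D4:**
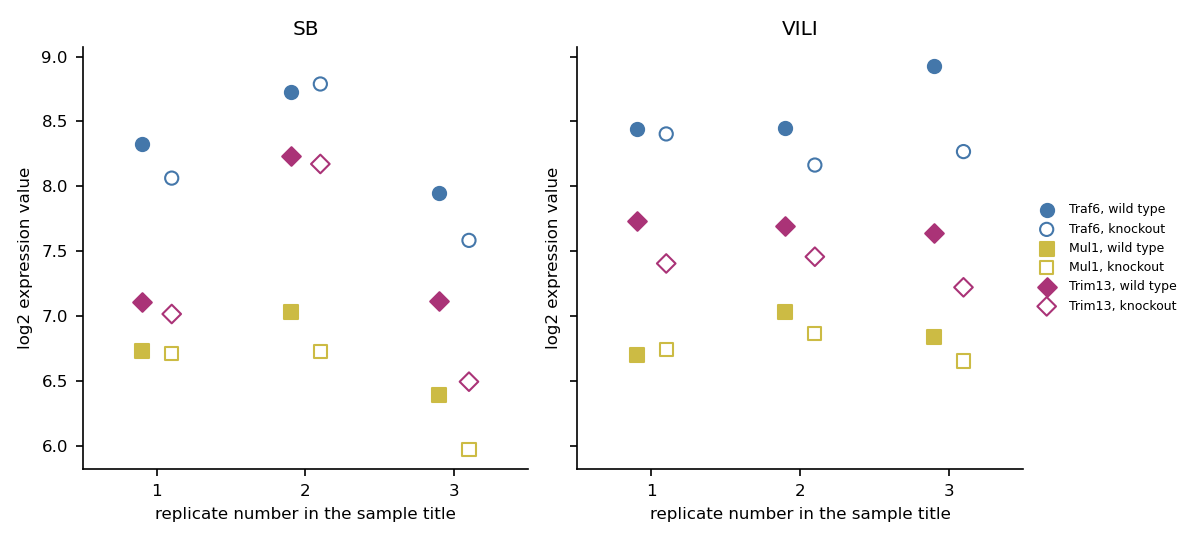
Log2 expression value (vertical axis) of Traf6, Mul1 and Trim13 by the replicate number in the sample title (horizontal axis), for SB arrays on the left and VILI arrays on the right, with wild type filled and knockout open. Under SB the arrays numbered 2 are highest in both genotypes, with Trim13 at 8.24 and 8.17.

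Uchl1, a deubiquitinase abundant in neurons and neuroendocrine cells, lay near the array medians. It read 4.35, 3.51 and 3.28 in wild type SB, 4.73, 5.15 and 4.06 in wild type VILI, 3.89, 3.52 and 3.24 in knockout SB and 3.74, 5.44 and 3.84 in knockout VILI. It was above the array's own median on 3 arrays, all of them VILI arrays, so it entered the tests only through that group and its difference has to be read with that. The difference was 0.86 averaged over genotypes (95% interval 0.15 to 1.57, adjusted p = 0.0860), with 0.93 in wild type lungs (adjusted p = 0.270) and 0.79 in knockout lungs (adjusted p = 0.336). The last was 0.24 without knockout VILI replicate 2. None was called.

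Of 10 listed markers of neuroendocrine cells and neurons, 8 were on the array. The 7 that failed the filter, Chga, Syp and Snap25 among them, were between 1.96 and 3.87 and above the median on no array. The other, Stmn2, was between 9.18 and 9.73 on 9 arrays and at 9.03, 8.47 and 7.94 in knockout VILI. It fell with VILI by 0.69 averaged over genotypes (limma adjusted p = 0.0167). Its difference was -1.10 in knockout lungs, called lower, and -0.28 in wild type lungs, not called. Its bearing on Uchl1 was not tested.

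The question whether the knockout changed these enzymes was addressed by 4 comparisons, and none called a member. The counts that follow hold for each gene's brightest probe set. Under SB limma called 0 of the 9 (0 with an unadjusted p under 0.05, smallest adjusted p 0.647), where 0.109% of all genes were called and 10.1% had an unadjusted p under 0.05. After VILI it called 0 of the 9 (0 unadjusted, smallest adjusted p 0.736), where 0.1% of all genes were called and 6.88% passed unadjusted. The arrays of 2 of the 9, Traf6 and Trim13, did not overlap there, as for 14.8% of all genes tested. Averaged over treatments it called 0 of the 9 (0 unadjusted), where 0.455% of all genes were called and 14.6% passed unadjusted. The interaction called 0 of the 9 (0 unadjusted) and 0% of all genes, with 288 of them at an unadjusted p under 0.05. With every kept probe set as its own row, no member was called, but some had an unadjusted limma p under 0.05. Under SB these were 1451109_a_at and 1421955_a_at of Nedd4 (0.62 and 0.41), 1429617_at of Cyld (0.43) and 1434412_x_at of Stub1 (-0.33). Of all kept probe sets, 10.6% had such a p there. After VILI these were 1460077_at of Ttc3 (0.64) and 1460247_a_at of Skp2 (0.80), against 5.98% of all. For the interaction it was 1451109_a_at of Nedd4 (-0.75), against 3.11%.

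The averaged intervals bound what the design could miss. For Nedd4 the genotype difference was -0.01 (95% interval -0.17 to 0.15), for Ttc3 0.04 (-0.18 to 0.27), for Stub1 -0.06 (-0.25 to 0.13) and for Cyld 0.07 (-0.14 to 0.28). They were wider for Traf6, at -0.26 (-0.70 to 0.18), Mul1, at -0.18 (-0.53 to 0.17), Trim13, at -0.29 (-0.89 to 0.30), and Uchl1, at -0.23 (-0.94 to 0.48). These last 4 were all negative. Skp2 had the largest difference, 0.58, with a wide interval as well (-0.05 to 1.21). No interval excluded 0. These values hold for each gene's brightest probe set. For the mean of its 3 probe sets the Nedd4 difference was 0.16 (adjusted p = 0.448). On 1451109_a_at and 1421955_a_at of Nedd4 it was 0.25 (-0.03 to 0.53, limma adjusted p = 0.430) and 0.24 (-0.03 to 0.52, adjusted p = 0.424). On single probe sets of other members the genotype difference was 0.46 (95% interval 0.14 to 0.79, unadjusted p = 0.00962, adjusted p = 0.231) for 1460077_at of Ttc3. It was 0.26 (0.01 to 0.51, unadjusted p = 0.0428, adjusted p = 0.362) for 1429617_at of Cyld. Neither was called, but both lie partly beyond the intervals given above for these genes.

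**Figure D5:**
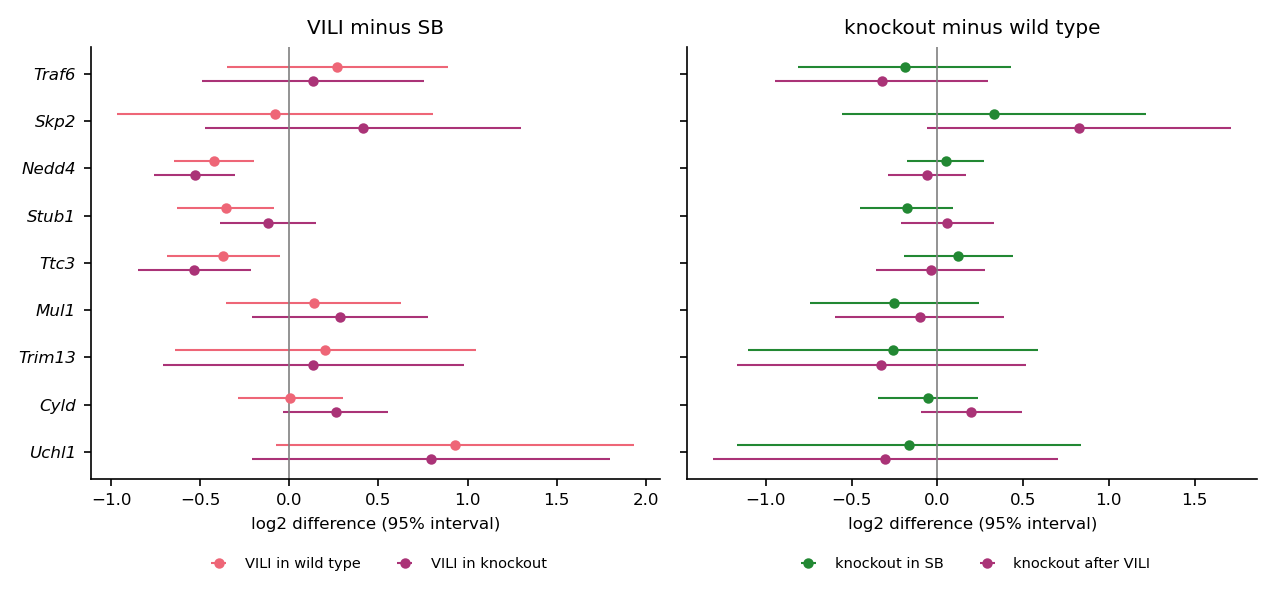
Log2 difference with its 95% interval (horizontal axis) for the 9 enzymes: VILI minus SB in each genotype on the left, knockout minus wild type under each treatment on the right. Nedd4 and Ttc3 have intervals below 0 in both genotypes on the left, Stub1 in wild type, and every interval on the right includes 0.

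The members differed in how much of their variation lay between the groups, leaving aside Uchl1, which passed the filter only through VILI arrays. Of the variance over the 12 arrays, 86.1% lay between the 4 groups for Nedd4, 71.6% for Ttc3 and 56.2% for Stub1. It was 36.3% for Cyld, 33.2% for Skp2, 26.9% for Mul1, 21.5% for Traf6 and 12.8% for Trim13. With 3 arrays in each of 4 groups, such a share is above 0 even without a group difference. These lower shares therefore do not show that variation followed the groups. The pooled SD within groups ran from 0.12 for Nedd4 to 0.57 for Skp2, so the same difference was easier to call for some members than for others. The 5 probe sets that failed the filter, 3 of Skp2 and 1 each of Traf6 and Cyld, lay between 1.80 and 3.66 and above the median on no array.

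Akt itself, the enzymes' substrate, did not pass the test. Akt1 read 10.67 to 11.24 over the 12 arrays and Akt2 8.59 to 9.44, with VILI differences averaged over genotypes of -0.15 (adjusted p = 0.360) and -0.07 (adjusted p = 0.692). Of 17 tested genes of the Akt core list (20 listed, 18 on the array), 1 rose and 2 fell with VILI averaged over genotypes, a share close to the 17.8% of all genes called there, with a median of -0.10 against -0.03 over all genes. Pik3ca, a catalytic subunit of phosphoinositide 3-kinase, rose by 0.40 (SE 0.09, adjusted p = 0.0138). Phlpp1, a phosphatase that inactivates Akt, fell by 0.47 (SE 0.12, adjusted p = 0.0253), and Pik3r2, a regulatory subunit, fell by 0.73 (SE 0.22, adjusted p = 0.0400). None of the 17 was called in the other comparisons.

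Partners, substrates and relatives of the members made a second list. Of 23 tested (27 listed, 24 on the array), 1 rose and 0 fell with VILI averaged over genotypes, where 17.8% of all genes were called, with a median of 0.09. It was Spata2, the adaptor that joins Cyld to the linear ubiquitin ligase. Spata2 read 8.09, 8.47 and 7.94 in wild type SB, 8.52, 8.42 and 8.58 in wild type VILI, 7.96, 8.23 and 8.14 in knockout SB and 8.58, 8.74 and 8.78 in knockout VILI. The knockout VILI arrays were above all SB arrays of both genotypes, and in wild type SB replicate 2 reached into the VILI range. It rose by 0.46 averaged over genotypes (SE 0.10, adjusted p = 0.0129) and by 0.58 in knockout (SE 0.15, adjusted p = 0.0468), and its wild type difference was 0.34 (adjusted p = 0.209), with an interaction of 0.24 (adjusted p = 0.9999). None of the 23 was called for genotype. Of 6 listed genes of ubiquitin and its activating enzymes only Uba6 was tested, at 0.15 (adjusted p = 0.521).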

How the data were processed

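The authors deposited log2 expression values for 45101 probe sets on 12 single-colour arrays, 1 per mouse. MAS5 and GCRMA are named in the submitters' processing notes, with no role, order or version. The values were used as deposited, without the 64 control probe sets. Probe sets above the array's own median on at least 3 arrays were kept (23082), and each gene with 1 symbol in the platform annotation was read from the brightest of its kept probe sets by mean (10996 genes). Group means were fitted to all 12 arrays with limma 3.58.1 in R 4.3.3 (package data.table, version 1.17.8), with empirical Bayes moderation and a mean-variance trend (8 residual and 3.36 prior degrees of freedom), for 7 contrasts, two-sided, with Benjamini-Hochberg adjustment over genes at 0.05. The script was tested on simulated data.

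The members and lists were chosen with earlier results of these data known. Named were all members, Gadd45a, called list genes (at most 6 per list), Akt1 and Akt2, and the 3 genes most like each called member. Same-numbered arrays deviated together under SB (correlations 0.23, 0.53 and 0.32 between genotypes). Differently numbered arrays were not compared, so these values do not show that the numbers pair arrays. For VILI in wild type the correlations were -0.01, -0.04 and 0.06, in knockout 0.05, 0.21 and 0.43, and between genotypes after VILI 0.05, 0.14 and 0.10. Alternatives changed the scaling, filter, probe set rule, moderation, arrays and replicate block. The number of arrays limits the precision.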

Additional observations from a re-analysis of the deposited data

Results flagged for a closer look

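One probe set of Ttc3, 1447908_x_at, had every knockout array below every wild type array under SB (a difference of -0.13) and every knockout array above every wild type array after VILI (0.09). The test of the difference between these, the interaction, was 0.22 (SE 0.19, limma adjusted p = 0.999995), so it was not called. Its values lay between 4.26 and 4.75, near the array medians, and its x suffix marks probes that can match other transcripts.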

How the results depend on the processing

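With VILI averaged over genotypes, 2 members were called under all alternatives but 1, which called 3 (without wild type VILI replicate 3, adding Stub1). The genotype comparisons and the interaction called 0 members throughout. Counts within a genotype were less stable. In wild type 0 were called, but 1, Nedd4, with quantile normalization (-0.46, adjusted p = 0.0425), with the replicate block (-0.42, adjusted p = 0.0346) and with both knockout arrays of highest B cell markers left out (adjusted p = 0.0433, chosen after seeing the data). Leaving out single arrays gave 0 to 1. In knockout 1 was called, but 2 with quantile normalization (Ttc3 at -0.58, adjusted p = 0.0484). It was 0 with only the 2 groups in the fit (Nedd4 adjusted p = 0.115), 0 with these and the replicate block (0.0925, chosen after seeing the data), and 0 without both B cell arrays (0.0780). Leaving out single arrays gave 0 to 1. The causes were not tested. Under SB the replicate block with only those groups lowered the SE of the Traf6 knockout difference from 0.28 to 0.15 and called no member. It changed no other call of a member. Uchl1 could not be tested under the stricter filter. No result changed sign while called. Calls over all genes moved more: 19 to 653 for VILI in wild type (290 reported), 11 to 713 in knockout (491), 8 to 23 for knockout under SB (12), 0 to 42 after VILI (11), 1128 to 3113 for VILI averaged (1958) and 22 to 161 for genotype averaged (50). The extremes came from leaving out wild type VILI replicate 1 or 2 or knockout VILI replicate 1, from fitting only 2 groups, from testing every probe set and from leaving out both B cell arrays. The upper counts 3113 and 23 are probe sets of the 23082 kept, or 13.5% and 0.0996%. The reported fit called 17.8% and 0.109% of genes there.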

Other observations

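The genes in this section lie outside the naming rule and were chosen after their values were seen. Hspa1a, an inducible chaperone that Stub1 works with, read 6.26, 6.58 and 6.46 in wild type SB, 7.07, 7.31 and 7.73 in wild type VILI, 8.57, 6.77 and 8.20 in knockout SB and 7.60, 10.61 and 11.22 in knockout VILI. Wild type SB was below all other arrays. Its VILI difference averaged over genotypes was 1.45 (SE 0.54, limma adjusted p = 0.0819) and its genotype difference 1.93 (SE 0.54, adjusted p = 0.179), neither called. Cks1b, the small subunit with which Skp2 recognises the inhibitor p27, read 11.78 in knockout VILI replicate 3 and 9.96 to 10.61 on the other 11 arrays, the same array that held the highest Skp2 and Cyld values.

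Over the 12 arrays the gene most like Skp2 was Gimap1 (Pearson correlation 0.980), the gene most like Cyld was Zwilch (0.960) and the gene most like Uchl1 was Lyve1 (0.964). Irak2 was among the 3 most like both Traf6 (0.914) and Trim13 (0.921). These describe likeness of values over the arrays and carry no test. Cyld read 10.31 on knockout VILI replicate 3 and at most 9.82 elsewhere, so this array can weigh heavily in its correlation.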
